A study of Bos taurus with 24 samples.

Results

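The aminoacyl-tRNA synthetases are the enzymes that load each amino acid onto its tRNA. They were followed here as 36 gene symbols taken from a fixed list, 20 for cytosolic and 16 for mitochondrial enzymes, the latter with symbols that end in 2. The rule used the names alone and no measured value. Of these, 35 were among the 24621 genes of the deposited counts, 19 cytosolic and 16 mitochondrial, and the cytosolic enzyme for asparagine, NARS, was not analysed here.

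Each synthetase joins an amino acid to the tRNAs that carry its anticodons, using ATP, and the charged tRNA is then handed to the ribosome by an elongation factor. Animal cells keep separate sets for the cytosol and for the mitochondrion, both encoded in the nucleus, and in mammals KARS and GARS serve both compartments, whereas mitochondrial glutamine tRNA is charged indirectly and has no synthetase of its own. Several cytosolic enzymes sit together on scaffold proteins in the multisynthetase complex, and the transcription of many cytosolic synthetase genes is known to be raised by the factor ATF4 when amino acids are scarce.

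The study sequenced single early blastocysts of Holstein cattle and treated each as a replicate, with 8 in vivo derived embryos, 8 from culture with serum and 8 from culture without it. The in vivo embryos, 5 male and 3 female, came from 3 superovulated cows, and the in vitro embryos came from slaughterhouse oocytes of 3 experiments, with semen of the same bull throughout. Serum embryos, 3 male and 5 female, were matured and cultured with fetal bovine serum, and added glutamine and pyruvate are listed for their maturation medium alone. Serum-free embryos, 5 male and 3 female, were matured with EGF and cultured with serum albumin, insulin, transferrin and selenium. Effects of maturation and of culture therefore cannot be told apart. In vitro blastocysts were harvested either as long after insemination as the in vivo embryos or a day earlier. All cultured embryos had essential and non-essential amino acids in their medium and the same low oxygen, and the labels do not give the cow, the experiment or the sequencing lane of an embryo.

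An embryo had a median of 4454031 exon counts, between 3253051 and 9000447. The trophectoderm keratin KRT8 was at 6002 to 11745 CPM (counts scaled to a common library size with TMM normalization over all 24 embryos) in vivo, and the pluripotency factor POU5F1 at 185 to 246 CPM, but the trophectoderm factor CDX2 did not exceed 2.48 CPM in any embryo. Summed markers of cumulus or granulosa cells stayed between 5.19 and 54.3 CPM, with PTX3 listed at 0 throughout, and those of blood cells between 5.03 and 21.7 CPM. Serum embryo B2 stood apart over all genes, with a mean correlation of 0.788 to the other serum embryos, against 0.873 to 0.906 for the remaining 7, and counts of synthetases or listed genes that change without it are given both ways. In whole embryos, fewer cells of a type and less RNA per cell cannot be told apart.

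Synthetase transcripts were detected in every embryo. The 19 cytosolic genes together held 4243 to 6078 CPM in vivo, with a median of 5201, 3185 to 6512 CPM in serum, with a median of 4638, and 4130 to 6703 CPM in serum-free medium, with a median of 5622. The 16 mitochondrial genes together held 386 to 555 CPM in vivo, with a median of 491, 284 to 542 CPM in serum, with a median of 437, and 386 to 511 CPM in serum-free medium, with a median of 429. The ranges of the conditions overlapped for both sums.

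Of the 35 genes, 31 were tested in each comparison of culture conditions, since every embryo of at least 1 group had 15 counts or more, and these were all 19 cytosolic genes and 12 mitochondrial ones. The 4 that were not tested were the mitochondrial enzymes for alanine (AARS2), cysteine (CARS2), glutamate (EARS2) and proline (PARS2). Their median counts over the 24 embryos were 14, 7, 9.5 and 28.5, and differences in them were not detectable at this depth.

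The first question was whether culture with serum left the synthetases at their in vivo levels. In in vivo derived embryos against embryos produced in serum-containing medium, 5 of 31 synthetases were called at an adjusted p-value under 0.05, which is 16.1% beside 28.3% of all genes tested (2074 of 7339) and so no more than the share of genes at large. WARS, DARS, IARS2 and FARS2 were higher in vivo, where 13.4% of all genes were called in that direction, and HARS2 was higher in serum, where 14.8% were. They were 2 of 19 cytosolic and 3 of 12 mitochondrial genes, and IARS2 alone changed at least 2-fold, where 13.8% of all genes were called at that size. In none of the 31 did the 2 groups stay clear of each other, against 7% of all genes.

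WARS, the cytosolic tryptophanyl-tRNA synthetase, which is also known as an interferon-inducible gene, lay between 465 and 763 CPM in vivo, with a median of 597, and between 213 and 510 CPM in serum, with a median of 313. Only 1 serum embryo, B8 at 510 CPM, reached into the in vivo range. Its level was higher in vivo by 0.86 on the log2 scale (SE 0.16, n = 8 and 8, edgeR adjusted p = 0.00119), a 1.81-fold difference. DARS, the aspartyl enzyme and a member of the multisynthetase complex, lay between 343 and 410 CPM in vivo, with a median of 369, and between 176 and 347 CPM in serum, with a median of 276. It was the most even synthetase among in vivo embryos, with an SD of 6.45% of its mean, and B5 at 347 CPM was the single serum embryo above the lowest in vivo value. The difference was 0.49 on the log2 scale (SE 0.12, edgeR adjusted p = 0.00715), or 1.41-fold.

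IARS2, which charges isoleucine in the mitochondrion, had the largest difference of the 31 in that comparison. In vivo embryos lay between 35.4 and 155 CPM, with a median of 73.1, serum embryos between 4.34 and 50.5 CPM, with a median of 20.5, and serum-free embryos between 47.2 and 124 CPM, with a median of 59.2. In serum, B2, B3, B5 and B7 were at 10.1, 7.38, 4.34 and 4.59 CPM, below every other embryo of the study, while B1, B4, B6 and B8 were at 50.5, 50.2, 49.8 and 30.9 CPM, inside or under the in vivo range. The level was 3.13-fold higher in vivo than in serum, or 1.65 on the log2 scale (SE 0.50, 95% interval 0.61 to 2.69, edgeR adjusted p = 0.0189), and without B2 the difference was 1.51 (adjusted p = 0.0296). Its cytosolic counterpart IARS had one of the smallest differences of that comparison, 0.04 on the log2 scale (95% interval -0.61 to 0.68).

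FARS2, the single-chain mitochondrial enzyme for phenylalanine, lay between 11.3 and 22.7 CPM in vivo, with a median of 18.8, and between 4.46 and 16.7 CPM in serum, with a median of 8.10. In serum, 2 of 8 embryos, B3 and B4, exceeded the lowest in vivo value, and the difference was 0.92 on the log2 scale (SE 0.29, edgeR adjusted p = 0.0216). FARSA and FARSB, which encode the alpha and beta subunits of the cytosolic phenylalanine enzyme, were not called. Within embryos the ratio of FARSB to FARSA in raw counts had a median of 1.58 in vivo, 2.29 in serum and 1.89 in serum-free medium, with overlapping ranges of 1.05 to 2.11, 1.65 to 3.26 and 1.62 to 2.38.

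HARS2, the mitochondrial histidyl-tRNA synthetase, was the only one called higher in serum by this test, which held no term for sex although the groups differed in it. With sex as a covariate 8 of 31 were called, FARSB, KARS and RARS being added. Their means were 378, 584 and 236 CPM in serum and 277, 470 and 171 CPM in vivo. It lay between 36.7 and 70.5 CPM in vivo, with a median of 52.3, and between 40.0 and 179 CPM in serum, with a median of 72.6. The highest serum values were those of B2 at 179 CPM and B5 at 128 CPM, and the other 6 ranged from 40.0 to 83.1 CPM. The difference was -0.75 on the log2 scale (SE 0.26, edgeR adjusted p = 0.0356), it was -0.51 without B2 (adjusted p = 0.0603) and -0.70 without B5 (adjusted p = 0.0545), and the call was also lost without in vivo embryo A3, A4 or A9. Without B2, 5 of 31 were still called, with KARS in place of HARS2. HARS, the cytosolic enzyme, differed by 0.10 (95% interval -0.27 to 0.48). The pair are neighbours with no gene between them in the RefSeq table of ARS-UCD2.0, a later assembly than the one used for mapping, and resemble each other in sequence, and how the counting treated reads that could belong to either beyond the requirement of a unique match was not tested.

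Among the 26 synthetases not called between in vivo and serum embryos, the mitochondrial methionyl and valyl enzymes MARS2 and VARS2 had the largest differences, 0.82 (adjusted p = 0.0605) and 0.79 (adjusted p = 0.0731) on the log2 scale. The smallest were those of IARS and of YARS2, the mitochondrial tyrosyl enzyme, at -0.05 (95% interval -0.63 to 0.53). The median difference was 0.10 over the 19 cytosolic and 0.07 over the 12 mitochondrial genes, against -0.01 over all genes tested. For 19 of the 31 the 95% interval lay wholly within 1 log2 unit of 0 on either side, so for the other 12 a 2-fold difference was not excluded by the interval.

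**Figure D1:**
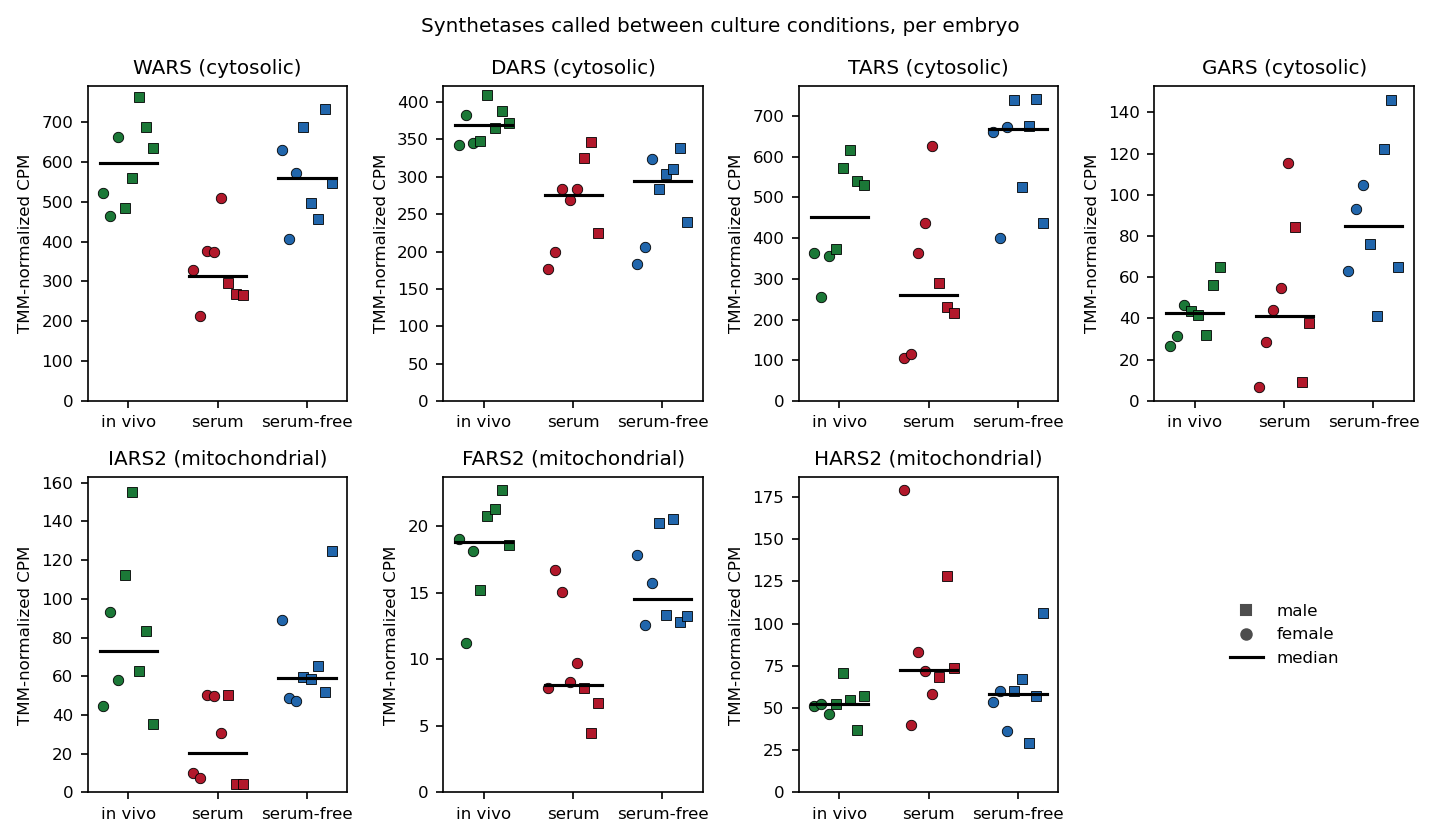
TMM-normalized CPM (vertical axes, starting at 0) of the 7 synthetases called in a comparison of culture conditions, 1 point per embryo, with squares for males, circles for females and a bar at the median of each condition. In serum, 4 embryos lie at 4.34 to 10.1 CPM for IARS2, and GARS is spread from 6.78 to 116 CPM.

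Embryos produced in serum-free medium were compared with the same in vivo derived embryos in the same way, so that both comparisons share their reference group. Here 1 of 31 synthetases was called, or 3.23%, beside 5.82% of all genes tested (426 of 7314). It was GARS, the glycyl enzyme of both cytosol and mitochondrion, which was higher in serum-free medium, as were 3.38% of all genes. None of the 12 mitochondrial enzymes was called by the quasi-likelihood test, edgeR's exact test or DESeq2, and 1 of them had an unadjusted p under 0.05, which 21.5% of all genes had. Of the 19 cytosolic genes, 8 had an unadjusted p under 0.05, GARS included, which made 9 of the 31 synthetases.

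GARS lay between 26.4 and 64.8 CPM in vivo, with a median of 42.8, and between 41.0 and 146 CPM in serum-free medium, with a median of 84.8. Embryos C2 at 41.0 CPM and C3 at 63.1 CPM were within the in vivo range, and C7 at 64.9 CPM was just above it. The difference was -1.08 on the log2 scale (SE 0.24, edgeR adjusted p = 0.0106), or 2.12-fold. In serum, GARS was the second most uneven of the 31 synthetases between embryos, from 6.78 CPM in B2 and 9.05 CPM in B5 to 116 CPM in B8, and it did not differ detectably from in vivo (-0.14, 95% interval -1.02 to 0.74).

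DARS was the only synthetase whose in vivo and serum-free embryos did not overlap, at 343 to 410 CPM and 183 to 338 CPM, where 0.971% of all genes did not overlap. Its difference of 0.40 on the log2 scale (SE 0.12) had an adjusted p of 0.0582 with edgeR's quasi-likelihood test and was called by the exact test, by DESeq2 and with sex as a covariate. WARS, IARS2, FARS2 and HARS2 differed by 0.05, 0.22, 0.19 and -0.18 between in vivo and serum-free embryos, with adjusted p-values between 0.643 and 0.868. Their 95% intervals ran from -0.22 to 0.32, from -0.33 to 0.77, from -0.24 to 0.63 and from -0.62 to 0.26.

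Of the 30 synthetases that were not called in serum-free medium, VARS2 and YARS2 had the largest differences, 0.47 and -0.46, and the arginyl and leucyl enzymes RARS and LARS the smallest, both 0.01 on the log2 scale. The 95% interval lay within 1 log2 unit of 0 for 29 of 31. The median difference was -0.17 over the cytosolic and 0.12 over the mitochondrial genes, beside -0.003 over all genes tested.

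Set directly against each other, the 2 media differed in 3 of 31 synthetases, or 9.68%, beside 16.3% of all genes tested (1171 of 7181). WARS, TARS and IARS2 were all lower in serum, the direction of 8.02% of all genes. WARS lay between 407 and 733 CPM in serum-free medium, with a median of 560, and the difference was -0.81 (SE 0.18, edgeR adjusted p = 0.00813). TARS, the cytosolic threonyl enzyme, lay between 107 and 627 CPM in serum, with a median of 261, and between 400 and 742 CPM in serum-free medium, with a median of 667, a difference of -1.07 (SE 0.29, adjusted p = 0.0200). In serum, B6 and B8 were at 437 and 627 CPM, inside the serum-free range, and B2 and B3 at 107 and 116 CPM were the lowest of all embryos.

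IARS2 differed by -1.43 between the media (SE 0.48, edgeR adjusted p = 0.0467). Its call was lost on leaving out any single embryo other than B1, B4 or B6, with adjusted p-values up to 0.105, and without B2 it was -1.30 (adjusted p = 0.0706). GARS and FARS2 had the largest differences among those not called, -0.94 and -0.73, and the smallest were those of HARS, 0.01, and of the methionyl enzyme MARS, -0.02. Without B2, 2 of 31 were called, WARS and TARS.

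**Figure D2:**
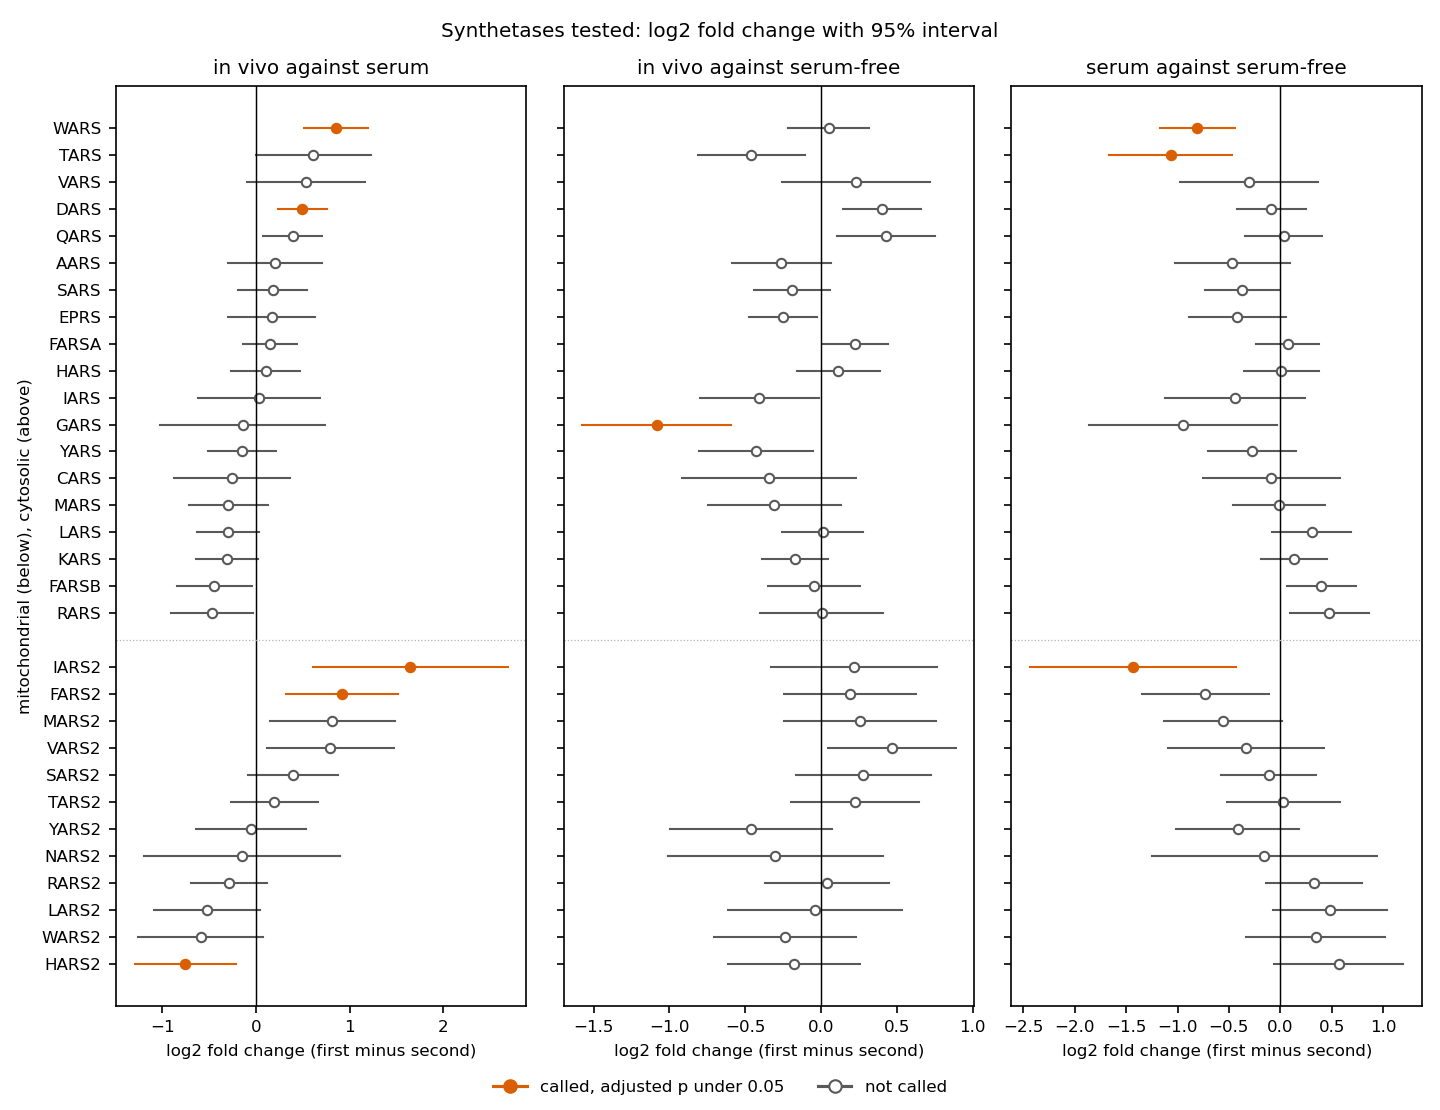
Log2 fold change (horizontal axes, first minus second group of each title, with ranges that differ between panels) and 95% interval of the 31 synthetases tested, cytosolic above and mitochondrial below the dotted line. Filled orange points were called at an adjusted p under 0.05, 5 of 31 between in vivo and serum, 1 between in vivo and serum-free and 3 between the media.

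By structure, the enzymes fall into class I and class II, which differ in the fold of their catalytic domain. Between in vivo and serum embryos, 1 of 9 cytosolic class I genes (WARS) and 1 of 9 class II genes (DARS) were called, with median differences of -0.15 and 0.15, where 28.3% of all genes were called. FARSA and FARSB each count as a class II gene here, though they encode subunits of the same enzyme. Between in vivo and serum-free embryos the count was 0 of 9 for class I by the quasi-likelihood test, with 3 at an unadjusted p under 0.05 and none by the exact test or DESeq2. For class II it was 1 of 9 (GARS), with 4 at an unadjusted p under 0.05. Of all genes 5.82% were called and 21.5% had an unadjusted p under 0.05. Between the media they were 1 (WARS) and 1 (TARS) of 9, where 16.3% of all genes were called. EPRS, which joins a glutamyl and a prolyl enzyme in 1 chain, belongs to both classes, was left out of these counts and was not called in any of these comparisons.

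Of the 8 enzymes of the multisynthetase complex, 1 was called between in vivo and serum embryos, which was DARS, beside 28.3% of all genes. In the other 2 comparisons the quasi-likelihood test called 0 of 8, with 4 at an unadjusted p under 0.05 against serum-free embryos, as had 21.5% of all genes, and 1 between the media, where 33.1% had one. The exact test and DESeq2 called DARS in the former and none of the 8 in the latter. All 8 had 95% intervals within 1 log2 unit of 0 in both comparisons with in vivo embryos. The scaffold protein EEF1E1, also named AIMP3, was higher after culture in either medium. It lay between 69.2 and 110 CPM in vivo, between 108 and 228 CPM in serum and between 85.1 and 138 CPM in serum-free medium, with differences of -0.86 (SE 0.18, edgeR adjusted p = 0.00205) and -0.54 (SE 0.13, adjusted p = 0.0192). AIMP2, the other scaffold gene tested, was not called, and neither differed between the media by this test, with 1 of 2 at an unadjusted p under 0.05 in that comparison.

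The cytosolic and mitochondrial enzymes for the same amino acid can be set against each other within an embryo, where depth and scaling cancel. In this way the ratio of WARS to WARS2 in raw counts had a median of 21.2 in vivo, 9.12 in serum and 20.0 in serum-free medium, and ranges of 13.6 to 37.3, 3.36 to 18.5 and 10.6 to 34.8. That of IARS2 to IARS was 0.328, 0.129 and 0.235 in the same order, and that of TARS to TARS2 was 7.91, 6.29 and 13.2. HARS2 to HARS gave 0.458, 0.624 and 0.513. These ratios overlapped between conditions in every case, they depend on gene length in their size, and they were chosen after the values were seen and not tested.

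Serum embryos varied most among themselves. The SD as a share of the mean was largest in serum for 14 of 19 cytosolic and 8 of 12 mitochondrial synthetases, or 73.7% and 66.7%, which is close to the 67.3% of the 6720 genes tested in all 3 comparisons. For 19 of 31 synthetases the lowest of all 24 embryos was a serum embryo, and for 14 the highest was one. B2 held the lowest value of 9 synthetases and B3 that of 6, while B5 held the highest value of 7. Such extremes were not counted over all genes, so these counts are not read as a trait of the synthetases. B5 was high for KARS at 985 CPM, FARSB at 670 CPM and RARS at 389 CPM, and at the same time low for IARS2, FARS2 and GARS, so that its synthetases did not shift in 1 direction. Its library had the most counts of all 24 embryos, 9000447, and the fewest genes with counts, 11735. The part of this in its extreme values was not tested.

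**Figure D3:**
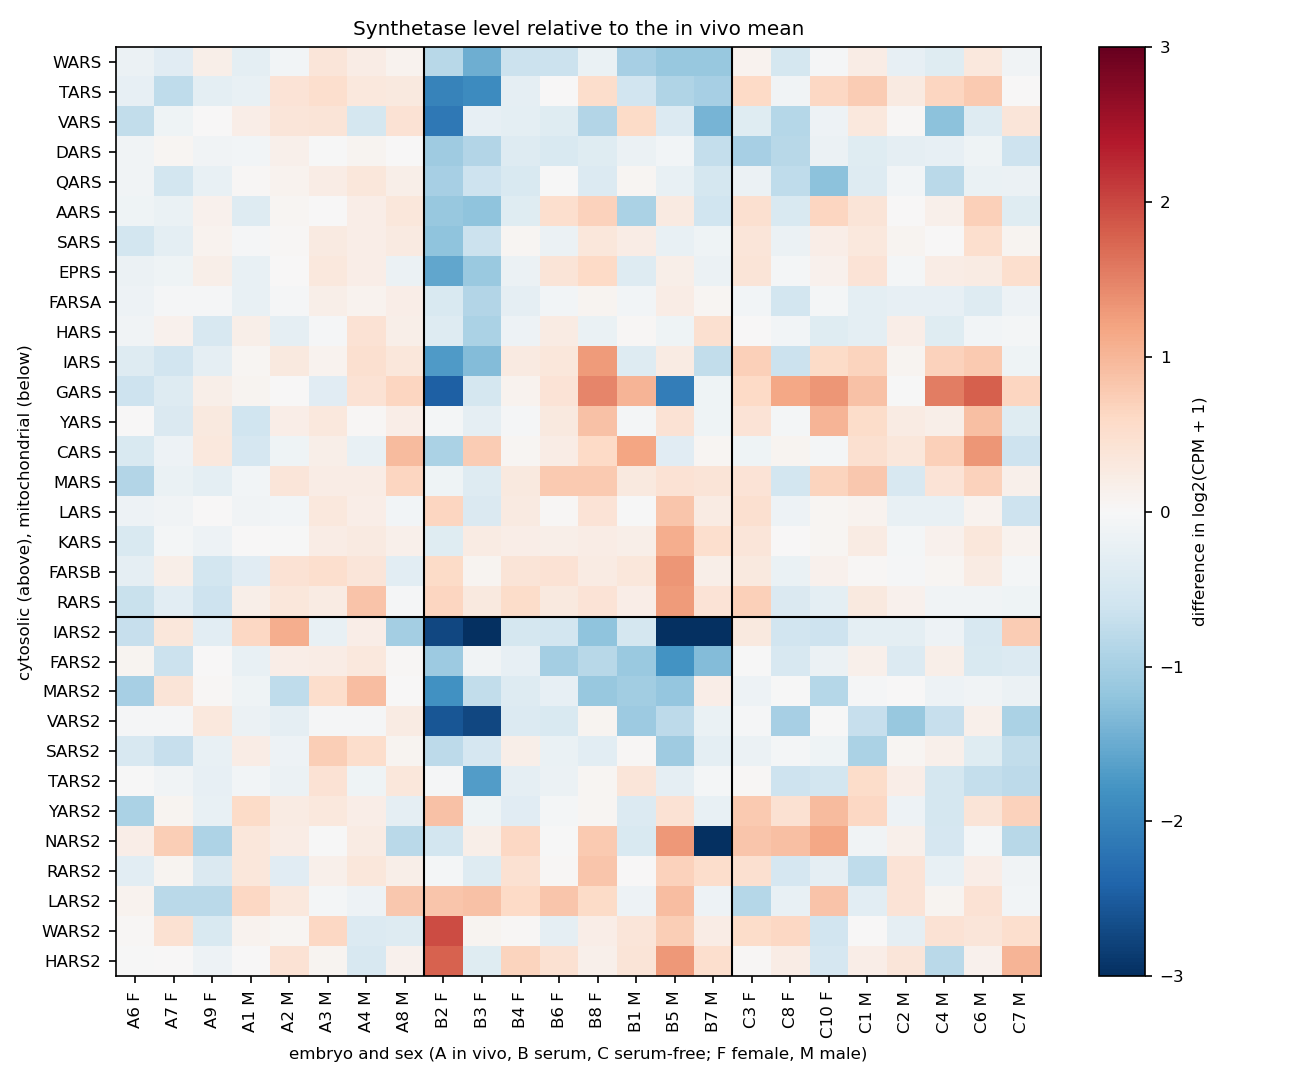
Difference in log2(CPM + 1) from the mean of the 8 in vivo embryos (colour, red higher and blue lower, saturated beyond 3 units) for the 31 synthetases tested, 1 column per embryo. The darkest blue cells are in serum embryos, among them IARS2 in B3, B5 and B7, and B5 has cells of both colours.

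Summed trophectoderm markers were at 7656 to 14905 CPM in vivo, 299.7 to 5258 CPM in serum and 5030 to 27537 CPM in serum-free medium. Of 7 markers tested, 5 were called higher in vivo than in serum, where 13.4% of all genes were called in that direction. KRT8 differed by 3.05, KRT18 by 2.66 and IFNT by 2.54 on the log2 scale, and the other 2 called were GATA2 and GATA3. At most 5 of the 7 reached the count limit in every serum embryo, and the rest entered this test through the in vivo embryos alone. IFNT had a mean of only 3.09 CPM in serum. The 2 not called, TEAD4 at -0.71 (adjusted p = 0.105) and TFAP2C at -0.32 (adjusted p = 0.292), had the opposite sign, and CDX2 was below the count limit. The sum was mostly KRT8, with means of 9058 of 11285 CPM in vivo and 1107 of 1746 CPM in serum. In males 4 of 7 markers were called, beside 19% of all genes, 3 higher in vivo and 1 higher in serum. Without B2, 6 of 7 trophectoderm markers and 3 of 5 inner cell mass markers were called between in vivo and serum embryos, in place of 5 and 2. The share of all genes called was 28.7% without B2 and 28.3% with it. In serum-free medium 0 of 7 trophectoderm markers were called with edgeR, beside 5.82% of all genes, and 0 had an unadjusted p under 0.05, which 21.5% of all genes had. Summed inner cell mass markers were at 594 to 849 CPM in vivo, 285 to 534 CPM in serum and 314 to 628 CPM in serum-free medium. PDGFRA was higher in vivo than in both media (2.04 and 1.01) and SOX2 was higher in serum (-1.25). The sum was mostly PDGFRA in vivo, with means of 438 of 723 CPM there and 108 of 405 CPM in serum. Of the 5 markers tested between in vivo and serum embryos, 2 were higher in vivo and 3 higher in serum, called or not. NANOG was not tested there, with means of 12.4 CPM in vivo and 62.0 CPM in serum, and is named after its values were seen.

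The 3 serum embryos with the lowest sums of trophectoderm markers were B2 at 299.7 CPM, B7 at 459.7 CPM and B5 at 556 CPM, and all of them were among the 4 lowest for IARS2. The other 5 ranged from 1236 CPM in B4 to 5258 CPM in B8, and B3, at 1699 CPM, was low for IARS2 although B4 was not. WARS in serum was highest in B8, the embryo with the highest sum, but it was lowest in B3 at 213 CPM, and B2, with the lowest sum, was at 329.9 CPM, above B1 at 297 CPM. HARS2 was highest in B2 and B5, but in B7, with the second lowest sum, it was at 73.5 CPM, below B4 at 83.1 CPM. The part of the marker levels in the differences of WARS, DARS, IARS2, FARS2 and HARS2 was not tested.

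**Figure D4:**
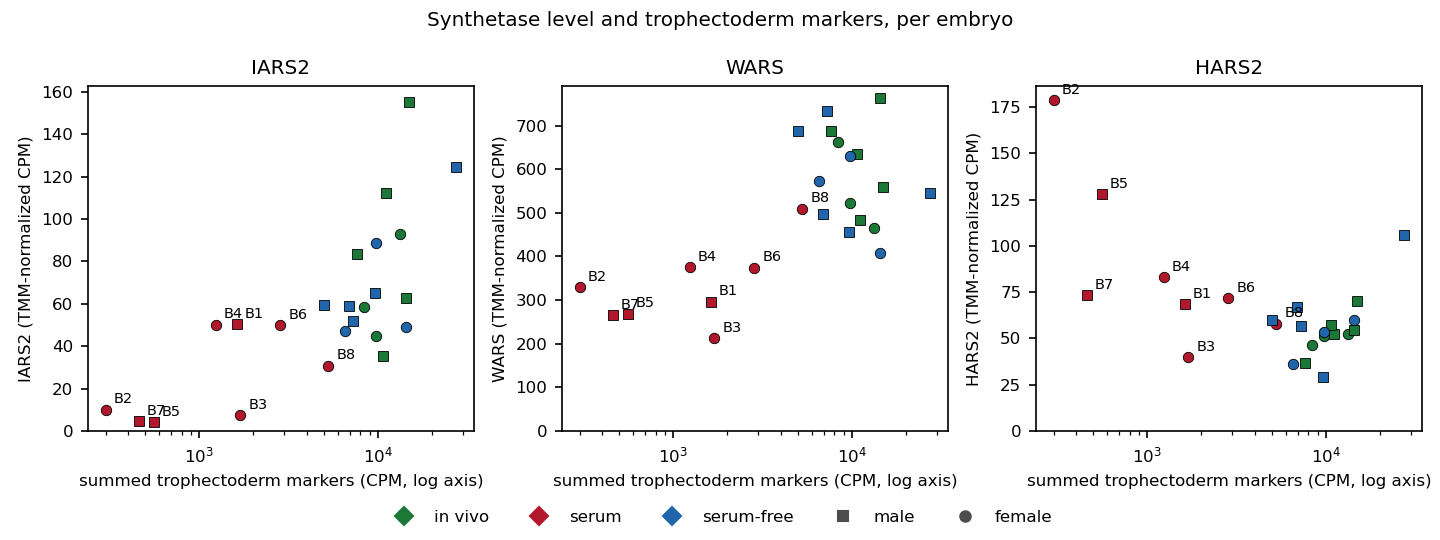
IARS2, WARS and HARS2 (vertical axes, TMM-normalized CPM) against summed trophectoderm markers (horizontal log axis, CPM), 1 point per embryo, serum embryos named. The serum embryos lie between 299.7 and 5258 CPM of markers and the in vivo embryos between 7656 and 14905 CPM.

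The study also asked whether the sexes respond differently to culture. In male embryos, 3 of 32 synthetases were called between in vivo and serum, or 9.38%, beside 19% of all genes tested (1471 of 7762), and all 3 were higher in vivo, the direction of 9.77% of all genes. PARS2 passed the count limit here and was not called. WARS was at 483, 559, 635, 687 and 763 CPM in the 5 in vivo males and at 265, 269 and 297 CPM in the 3 serum males, a difference of 1.20 (SE 0.18, edgeR adjusted p = 0.0019). TARS was at 374, 530, 542, 572 and 617 CPM and at 217, 231 and 291 CPM, a difference of 1.12 (SE 0.20, adjusted p = 0.00344). FARS2 was at 15.2, 18.5, 20.8, 21.3 and 22.7 CPM and at 4.46, 6.74 and 7.84 CPM, a difference of 1.67 (SE 0.41, adjusted p = 0.0172). Of the 32 synthetases, 4 did not overlap between these groups, the 3 called ones included, beside 26.2% of all genes. All 3 were also called on leaving out any single embryo, and the count rose to 8 of 33 without B1, where 2366 of 8116 genes were called, and to 5 without B5. Without B7, 797 of 8068 genes and 3 synthetases were called. With 1 fit over all embryos TARS had an adjusted p of 0.0513.

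In female embryos, 0 of 31 synthetases were called between in vivo and serum by the quasi-likelihood test, beside 0.418% of all genes tested (34 of 8138), with 6 at an unadjusted p under 0.05, as had 21.1% of all genes. The count of genes called rested on single embryos, with 596 of 8357 without B2 and 2 without A6 or A7, and 7 without A9. Both edgeR's exact test and DESeq2 called 2 of 31 synthetases, beside 491 and 716 of 8138 genes, which were RARS and the mitochondrial leucyl enzyme LARS2, both higher in serum and named after their values were seen. RARS was at 102, 104 and 129 CPM in the 3 in vivo females and at 198, 198, 215, 235 and 251 CPM in the 5 serum females, a difference of -1.02 (SE 0.21, quasi-likelihood adjusted p = 0.0700), and without B2 it was called. LARS2 was at 14.3, 14.4 and 27.6 CPM and at 38.6, 39.7, 46.4, 46.8 and 48.4 CPM, a difference of -1.27 (SE 0.34, adjusted p = 0.107). WARS differed by 0.58 (95% interval 0.01 to 1.14), TARS by -0.03 (-1.17 to 1.11) and FARS2 by 0.44 (-0.49 to 1.37).

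The sex difference itself was not called for any of 32 synthetases in the interaction of sex and serum culture, where 0 of 8446 genes (0%) were called with edgeR. Of the 32, 2 had an unadjusted p under 0.05, LARS2 and FARS2, beside 5.16% of all genes, and DESeq2 called 14 genes, none of them a synthetase. The in vivo minus serum difference in males minus that in females was 0.59 for WARS (95% interval -0.08 to 1.25), 1.12 for TARS (-0.13 to 2.37) and 1.18 for FARS2 (0.02 to 2.35, edgeR adjusted p = 0.953). For serum-free culture the interaction also gave 0 of 32 and 0 of 8425 genes (0%), with 2 synthetases at an unadjusted p under 0.05 beside 6.59% of all genes, and DESeq2 called 5 genes and no synthetase.

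**Figure D5:**
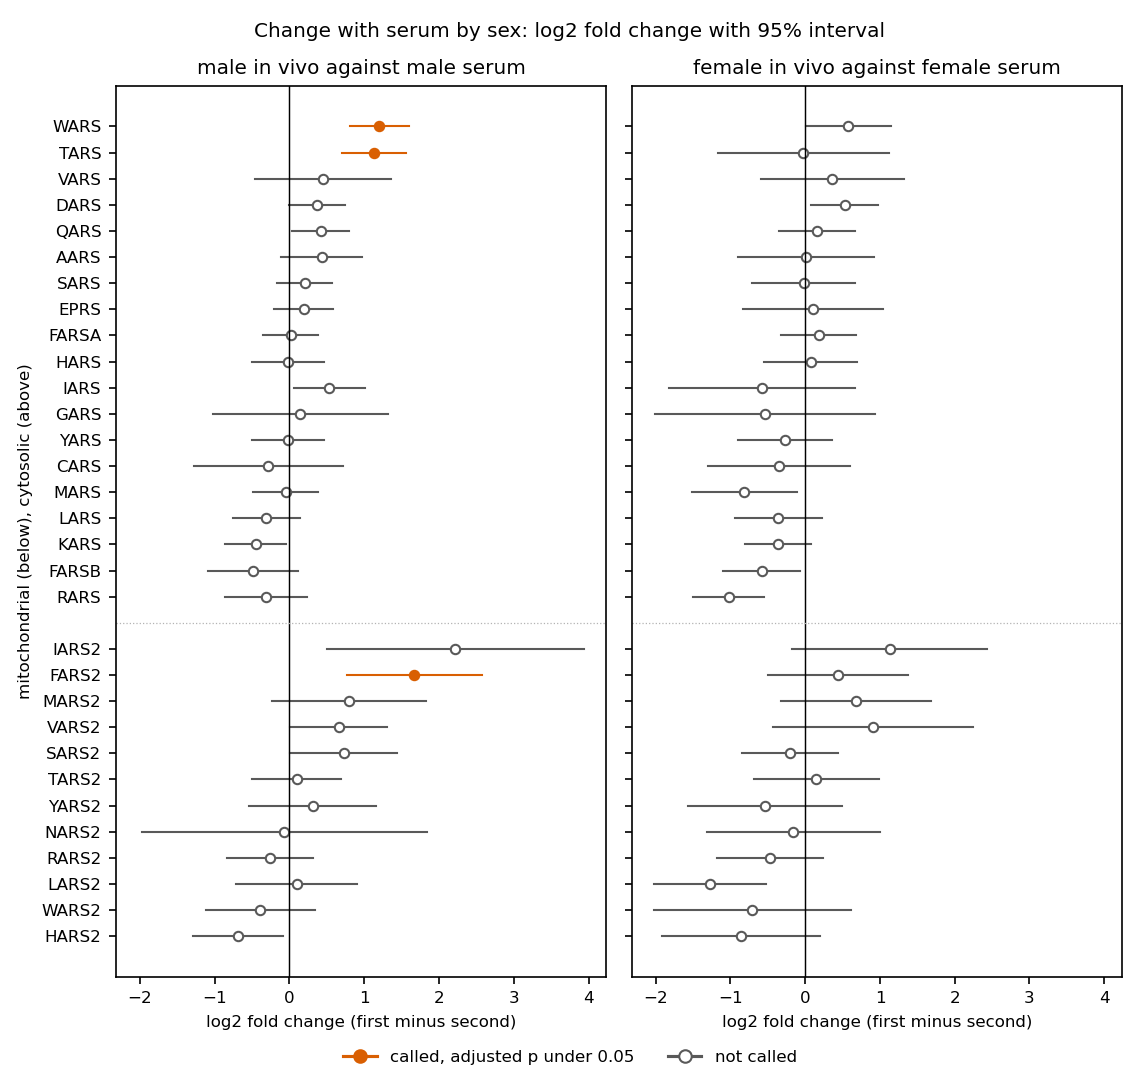
Log2 fold change and 95% interval between in vivo and serum embryos (horizontal axes on 1 scale, in vivo minus serum) in males, 5 against 3 embryos, and in females, 3 against 5, for the synthetases tested with both sexes together. WARS, TARS and FARS2 were called in males and none in females, and the intervals of the sexes overlap for these 3 enzymes.

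With serum-free medium no synthetase was called within a sex by the quasi-likelihood test. In males 0 of 32 were called beside 1.76% of all genes (135 of 7662), with 4 at an unadjusted p under 0.05 beside 18% of all genes, none by the exact test and 1, GARS, by DESeq2. In females 0 of 31 were called beside 0.304% of all genes (25 of 8211), with 7 at an unadjusted p under 0.05 beside 14% of all genes, 1 (GARS) by the exact test and 2 (GARS and TARS) by DESeq2. The level of GARS, in vivo minus serum-free, differed by -0.96 (SE 0.31) in males and -1.34 (SE 0.30) in females, and the interaction was 0.38 (95% interval -0.65 to 1.41).

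Between male and female embryos derived in vivo, 2 of 32 synthetases were called, or 6.25%, beside 1.26% of all genes (100 of 7963), and both were higher in males, as were 0.301% of all genes. They were the isoleucyl enzyme IARS and RARS, 2 members of the multisynthetase complex, named after their values were seen. Their direction was not particular to them. Of the 32 synthetases 29 were higher in males, among them all 19 cytosolic ones, beside 4034 of 7963 genes. IARS was at 207, 214, 245, 251 and 278 CPM in males and at 134, 152 and 165 CPM in females, a difference of 0.65 (SE 0.14, edgeR adjusted p = 0.0409). RARS was at 158, 181, 191, 205 and 293 CPM in males and at 102, 104 and 129 CPM in females, a difference of 0.87 (SE 0.19, adjusted p = 0.0414). Males and females did not overlap for 7 of the 32 synthetases, these 2 included, beside 9.83% of all genes. Leaving out embryo A2, A4, A6, A7 or A9 took away both calls, leaving out A1 or A3 took away that of RARS, and leaving out A8 that of IARS.

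In serum 0 of 31 synthetases were called between the sexes, beside 0.173% of all genes (13 of 7534), and in serum-free medium 0 of 31, beside 0.152% (12 of 7918). At an unadjusted p under 0.05 there were 0 and 1, beside 6.24% and 8.01% of all genes, and the exact test and DESeq2 called none in either medium. The difference between the sexes in IARS was -0.45 (95% interval -1.72 to 0.82) in serum and 0.15 (-0.52 to 0.81) in serum-free medium.

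Other genes of tRNA charging were compared from lists of names. Of 7 tested genes for delivery of tRNA and correction of mischarging, 4 were called between in vivo and serum embryos, beside 28.3% of all genes. XPOT, which exports tRNA from the nucleus, and DTD1, which removes D-amino acids from tRNA, were higher in vivo by 0.83 (SE 0.24, edgeR adjusted p = 0.0163) and 1.15 (SE 0.30, adjusted p = 0.0093). The peptidyl-tRNA hydrolase PTRH2 and AARSD1, an editing protein for mischarged alanine tRNA, were higher in serum, with differences of -0.87 (SE 0.20, adjusted p = 0.0039) and -0.43 (SE 0.15, adjusted p = 0.0357). None of the 7 was called between in vivo and serum-free embryos, beside 5.82% of all genes, with 1 at an unadjusted p under 0.05, as had 21.5% of all genes. Between the media XPOT (-0.76) and DTD1 (-0.97) were lower in serum, 2 of 7 beside 16.3% of all genes, calls that were both lost without B2. Of 9 tested partners of mitochondrial charging and translation, such as the amidotransferase that makes mitochondrial glutaminyl-tRNA, 0 were called with edgeR in any of the 3 comparisons, beside 28.3%, 5.82% and 16.3% of all genes. At an unadjusted p under 0.05 there were 1, 1 and 0, beside 3023 of 7339, 1571 of 7314 and 2374 of 7181 genes.

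The amino acid response, the group of genes known to be driven by ATF4, differed from in vivo in serum-free embryos in 10 of 18 genes tested, all higher in serum-free medium, where 3.38% of all genes were called in that direction. At least CTH among the 10 passed the count limit through the serum-free embryos alone, so the limit favoured its direction. PSAT1, PHGDH and PSPH, the 3 enzymes of serine synthesis, differed by -2.15, -1.71 and -1.80 on the log2 scale, in vivo minus serum-free, and ATF4 by -0.62 (edgeR adjusted p = 0.0479). GARS was the single synthetase of 31 called in that comparison. In serum, 3 of 15 were called, or 20%, which is below the 28.3% of all genes. They were the folate enzyme SHMT2 (-2.01) and DDIT4 (-1.63) higher in serum and the amino acid transporter SLC38A2 (1.58) higher in vivo. Between the media 3 of 18 were called, or 16.7%, which is close to the 16.3% of all genes, with SLC38A2 and CTH lower in serum and SHMT2 higher. Here too CTH was tested through the serum-free embryos alone. Without B2, 4 of 17 were called between in vivo and serum embryos, beside 28.7% of all genes, and 2 of 18 between the media, beside 15%.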

How the data were processed

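Single early bovine blastocysts were sequenced after cDNA synthesis and amplification with a SMARTer low-input kit, which does not keep the strand, so that reads of a gene and of an overlapping antisense gene cannot be told apart. After trimming, the authors aligned the reads to UMD3.1, the build per the labels, and the values they deposited are raw counts per gene of uniquely placed exonic fragments, without normalization. Condition and sex were taken from the labels, and all 24 value columns matched an embryo by name. The counts carry no molecular identifiers and no coordinates. A gene listed at 0 could hold up to 3 counts, which was at most 9.22e-05% of an embryo's total and covers counting error only.

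Counts were tested with edgeR 4.0.16 in R 4.3.3, after TMM normalization, by the quasi-likelihood test on the compared groups alone. Genes entered a test with at least 15 counts in all embryos of at least 1 group, with Benjamini-Hochberg adjustment over all genes tested, and were called at an adjusted p under 0.05 at any fold. Log2 fold changes are the first group minus the second, standard errors are approximate (the estimate divided by the root of F), and intervals are 95%. Levels are CPM with 1 TMM scaling over all embryos, the heat map adds 1 CPM, and ratios within an embryo add 0.5 counts. Since embryos of a condition share cows or experiments that the labels do not give, p-values measure the spread between these embryos. No batch could be modelled.

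The members and all lists (compartments, structural classes, multisynthetase enzymes and scaffold, tRNA delivery and editing, mitochondrial charging partners, amino acid response, and markers of trophectoderm, inner cell mass, cumulus or granulosa and blood cells) were chosen with earlier results of these data known. Named are the synthetases called between conditions, those uncalled with the 2 largest and 2 smallest differences of each comparison, and called genes of the lists, at most 6 each. Others are marked where they appear, and B5's high values and the ratios were also chosen after the values were seen. The test scripts were checked on simulated data. Alternatives were the exact test of edgeR, DESeq2 1.42.0, its size factors, looser and stricter count limits, 1 fit over all embryos, sex as a covariate, counts thinned to the smallest total, a block by embryo number and leaving out each embryo, and list counts without B2 were added after seeing the data. Sequences and genome coordinates were not used here, and a planned search of promoter motifs was not run.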

Additional observations from a re-analysis of the deposited data

Results flagged for a closer look

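Within each condition the highest or the lowest of the 8 embryos was compared with its nearest neighbour for each of the 35 synthetases, and 11 of 105 groups had an embryo that stood apart by Dixon's criterion. The CPM were not log transformed and the same 8 embryos served all genes of a condition, so no rate expected by chance is set beside this count. Serum embryo B5 was the highest for 4 of them, with FARSB at 670 CPM against 397 CPM for the next embryo, KARS at 985 against 655 CPM, RARS at 389 against 251 CPM and EARS2 at 9.53 against 3.69 CPM. In serum, B8 was the highest for IARS at 483 against 252 CPM, B2 the highest for WARS2 at 98.0 against 41.6 CPM and B3 the lowest for TARS2 at 15.9 against 43.7 CPM. In vivo, A8 was the highest for CARS at 41.2 against 26.1 CPM, A3 for AARS2 at 12.0 against 5.99 CPM and A4 for CARS2 at 4.36 against 1.93 CPM, the last 2 being genes with too few counts to be tested. In serum-free medium C10 was the lowest for MARS2 at 15.7 against 25.7 CPM. The difference between sexes in the change with serum or with serum-free medium was not called for any synthetase.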

How the results depend on the processing

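No fold change reversed in 300 recomputations of called synthetases, and 47 of them lost their call. With DESeq2's size factors the median level moved by less than 1 SD between the embryos of its condition in 105 of 105 cases. That limit is wide, reaching 83.7% of the mean for IARS2 in serum, so it says little about the scaling. WARS and DARS were called between in vivo and serum embryos in all 25 alternatives (adjusted p from 2.42e-05 to 0.0213 and from 0.00121 to 0.0398), IARS2 in 24, FARS2 in 23, HARS2 in 18 and, against serum-free embryos, GARS in 23. Between the media WARS and TARS held in 24 and IARS2 in 8 of 25. The number of synthetases called between in vivo and serum embryos, 5, was 8 with DESeq2, 8 with 1 fit over all embryos, 8 with sex as a covariate (FARSB, KARS and RARS being added), 3 with a limit of at least 1 count in any embryo, and 4 to 7 without 1 embryo. Against serum-free embryos, 1 became 2 with the exact test, DESeq2 or sex as a covariate, 0 with 1 fit over all embryos, and 1 to 2 without 1 embryo, 2 being reached without C6 or C10. Between the media, 3 became 5 with 1 fit over all embryos and 2 to 4 without 1 embryo. In males against serum 3 became 3 to 8 without 1 embryo, and against serum-free 0 became 1 with DESeq2. In females against serum 0 became 2 with the exact test, DESeq2 or 1 fit over all embryos and 0 to 1 without 1 embryo, and against serum-free 0 became 1 with the exact test and 2 with DESeq2 or the looser count limit. Between the sexes in vivo 2 became 5 with DESeq2, 0 with 1 fit over all embryos and 0 to 2 without 1 embryo. Over all genes, calls went from 426 to 664 with DESeq2, 260 with the looser limit and 138 with 1 fit against serum-free embryos, and from 1171 to 772 with the looser limit and 1909 with 1 fit between the media. Without 1 embryo they fell as far as 275 and 690. Within females the exact test, DESeq2 and 1 fit called 491, 716 and 642 genes against 34 between in vivo and serum. Without 1 embryo, genes called against serum-free embryos ranged from 10 to 231 in males (135 with all) and from 1 to 18 in females (25 with all). The causes were not tested. Embryos that share a number in their labels did not visibly deviate together, with correlations from -0.153 to 0.0955 over 21 pairs. No pairing by number was detected, but sex was not removed in this check, and a weak shared effect could have been missed. A block by number left 2, 0 and 0 synthetases and 1077, 160 and 30 genes called in the 3 comparisons of conditions. Genes with few counts set the limit of depth, since 4 synthetases could not be tested and 12 of 31 intervals between in vivo and serum embryos reached past a 2-fold difference. Without B2, XPOT and DTD1 were not called between the media (2 genes against 0).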
